A study of Homo sapiens with 9 samples.

Results

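The genes described here encode subunits of protein phosphatase 1 (PP1) and protein phosphatase 2A (PP2A), the enzymes that remove most phosphate groups from serine and threonine residues in human cells. They were 10 of the 15354 genes of the deposited table and were found by matching Ensembl identifiers to symbols. They comprised the 3 PP1 catalytic subunits PPP1CA, PPP1CB and PPP1CC, the PP1 partners PPP1R7, PPP1R8 and PPP1R10, the PP2A catalytic subunits PPP2CA and PPP2CB, and the PP2A scaffold subunits PPP2R1A and PPP2R1B. The family was chosen because PPP1CA was lower with both siRNAs, so the values of PPP1CA against control are given as a description with no test. The question put to the other genes was whether PPP1CB and PPP1CC offset the lower PPP1CA.

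RNA-seq was made from HCT116, an established human colorectal cancer cell line, in 9 libraries. By the labels HCT116 cells were reverse transfected at 25 nM (the study's methods give a higher concentration) with a commercial non-targeting control siRNA, with siRNA A or with siRNA B, with 3 libraries per group, and per the study's methods RNA was taken after 36 h. Both siRNAs were directed at SNHG5, a long non-coding RNA and host gene of small nucleolar RNAs. All groups share the cell line and the transfection reagent, every comparison with control uses the same 3 control libraries, and the labels do not say which of the study's siRNAs is A and which is B. The library totals recovered from the deposited values were 15566530 to 23277549 reads, of which the genes of the table held 99.86% to 99.90%. SNHG5 itself had 35.6, 26.3 and 28.6 CPM in the control libraries (CPM is the reads of a gene as a share of its library total, on a common scale). The libraries labelled siRNA A had 63.9, 50.0 and 61.5 CPM of SNHG5, and the siRNA B ones had 47.8, 47.7 and 45.2 CPM. The targeted transcript was therefore higher, not lower, in all 6 libraries labelled siRNA A or siRNA B, and these are named by their labels throughout. Of 6 epithelial markers 5 reached 1 CPM (EPCAM, CDH1, KRT8, KRT18 and VIL1), with a summed level of 1566 to 1636 CPM in control, 2068 to 2430 CPM with siRNA A and 1758 to 1898 CPM with siRNA B. KRT20 stayed at 0.820 CPM or below. Of 7 markers of blood, stromal and endothelial cells, 2 were in the table, COL3A1 at 0.143 CPM or below and COL1A1, a collagen of fibroblasts, above 1 CPM. The summed level of both was 18.3 to 19.5 CPM in control, 9.44 to 12.4 CPM with siRNA A and 8.55 to 9.42 CPM with siRNA B, lower in all 6 siRNA libraries as PPP1CA was, and the part of either marker list in the results below was not tested.

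PP1 holds 1 catalytic subunit, of the alpha, beta or gamma form, bound to one of many regulatory partners that set where it acts and on what. The catalytic subunits are nearly free of selectivity of their own. PP2A is built on a scaffold subunit, of the alpha or beta form, that holds a catalytic subunit and an exchangeable B-type subunit, and the B-type subunit directs the enzyme to its substrates. PP1 and PP2A counter many kinases in mitosis, in translation and in growth signalling, and PP2A is known as a tumour suppressor whose scaffold gene PPP2R1A is mutated in some cancers.

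The catalytic subunits of PP1 are close relatives, so their coding sequences are shown first, because reads of 50 bases must be told apart between them for any offset to be measured. The stretches below cover the same 30 coding bases of each gene in the GENCODE annotation of build GRCh37, 5′ to 3′ on the coding strand, and capitals mark the 4 positions at which the genes vary.
PPP1CA: gaCtatgtggacagGggCaagcagtcCttg
PPP1CB: gaTtatgtggacagAggAaagcagtcTttg
PPP1CC: gaCtatgtggacagGggAaagcagtcAttg
They lie at chr11:67168275-67168304 on the minus strand, chr2:29001761-29001790 on the plus strand and chr12:111168449-111168478 on the minus strand. All 3 are coding exon sequence and encode part of the conserved catalytic core of the phosphatase family. Over the whole coding sequence PPP1CA was identical to PPP1CB at 73.2% of aligned bases and to PPP1CC at 74.8%, and PPP1CB to PPP1CC at 76.6%. The longest run of identical bases between any pair of them was 23 bases. Between PPP2CA and PPP2CB 83.2% of coding bases were identical with a longest run of 26 bases, and between PPP2R1A and PPP2R1B 73.3% with a run of 17 bases. No coding stretch as long as a read was shared within a pair, so exact matches of this length would separate the coding sequences of the paralogs. Whether the alignment used, which may allow mismatches, did so was not tested.

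Some of the genes share sequence with other genes instead. PPP1CA (ENSG00000172531.10, chr11:67165652-67188654) overlaps CARNS1, RAD9A and TBC1D10C on the other strand, and 13.0% of the 50-base windows of its canonical transcript also occur, in either orientation, in transcripts of RAD9A. PPP1CB (ENSG00000213639.5, chr2:28974506-29025806) shares 8.51% of such windows with SPDYA on its own strand, and PPP1CC (ENSG00000186298.7, chr12:111157485-111180744) shares none. PPP2CA (ENSG00000113575.5, chr5:133529726-133561764) shares 37.9%, mostly with a readthrough gene annotated on the same strand. For PPP2R1A (ENSG00000105568.13, chr19:52674189-52732771) the share was 11.0% and for PPP1R8 (ENSG00000117751.13, chr1:28157293-28178187) 8.03%. It was 0.527% for PPP2R1B (ENSG00000137713.11, chr11:111597632-111637113) and 3.43% for PPP2CB (ENSG00000104695.7, chromosome 8). It was 0 for PPP1R10 (ENSG00000204569.5, chr6:30568190-30586389) and for the canonical transcript of PPP1R7 (ENSG00000115685.10, chr2:242088991-242123067). Over the merged exons of all its transcripts, however, PPP1R7 lies opposite exons of PASK on the other strand for 17.4% of bases, close to the 17.97% of PPP1CA. Exons on the other strand covered 21.3% of merged exon bases of PPP1R8 and 6.72% of those of PPP2R1A. Whether the counting used strand is not given in the sources used here, so reads of PPP1CA, PPP1R7, PPP1R8 and PPP2R1A cannot be told apart from those of their antisense neighbours there. For PPP1CB (10.8% of merged exon bases) and PPP2CA (27.7%) the shared exons are on the same strand, so that strand would not separate them, and how the counting dealt with such reads is not given either.

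PPP1CA transcript levels were 5 to 6 times lower in the libraries labelled siRNA A or siRNA B than in control. The levels given here are CPM after TMM scaling, which uses the trimmed mean of M values to equalise the bulk of genes between libraries. PPP1CA stood at 181, 160.4 and 177 TMM-scaled CPM in control. It stood at 29.6, 30.6 and 27.1 with siRNA A and at 37.0, 26.2 and 38.6 with siRNA B. Every one of the 6 siRNA libraries lay far below the lowest control library, while the siRNA A and siRNA B libraries overlapped. The log2 fold change on the log2(TMM-scaled CPM + 1) scale was −2.53 (SE 0.14, 95% interval −2.83 to −2.23) for siRNA A, a level 5.78-fold lower. For siRNA B it was −2.33 (SE 0.14, 95% interval −2.63 to −2.03), 5.04-fold lower. Both intervals describe the spread of the fit only and are not a test, since PPP1CA chose the family and they make no allowance for that. Depth did not limit these values, as PPP1CA had at least 405 reads in every library. In bulk RNA, fewer cells of a type and less RNA per cell cannot be told apart.

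siRNA A and siRNA B were also compared with each other. The family was not chosen by that comparison, but PPP1CA was chosen for being lower with both siRNAs. Its difference between them is therefore not independent of the choice. PPP1CA differed between them by −0.20 (SE 0.14, 95% interval −0.50 to 0.10), which did not pass the test (limma with Benjamini-Hochberg adjustment over 13893 genes, adjusted p = 0.280). Without siRNA B replicate 2, the lowest of its group, the difference was −0.37 and passed (limma adjusted p = 0.0180). The 5 genes whose pattern over the 9 libraries was most like that of PPP1CA were TBCD, GDE1, MED24, MFHAS1 and XYLT2, with Pearson r from 0.990 to 0.992 on the log2 scale. TBCD, a tubulin folding cofactor, averaged 108 TMM-scaled CPM in the control group, 30.3 in siRNA A and 35.7 in siRNA B libraries. These correlations rest largely on the step between control and the other libraries and carry no test.

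**Figure D1:**
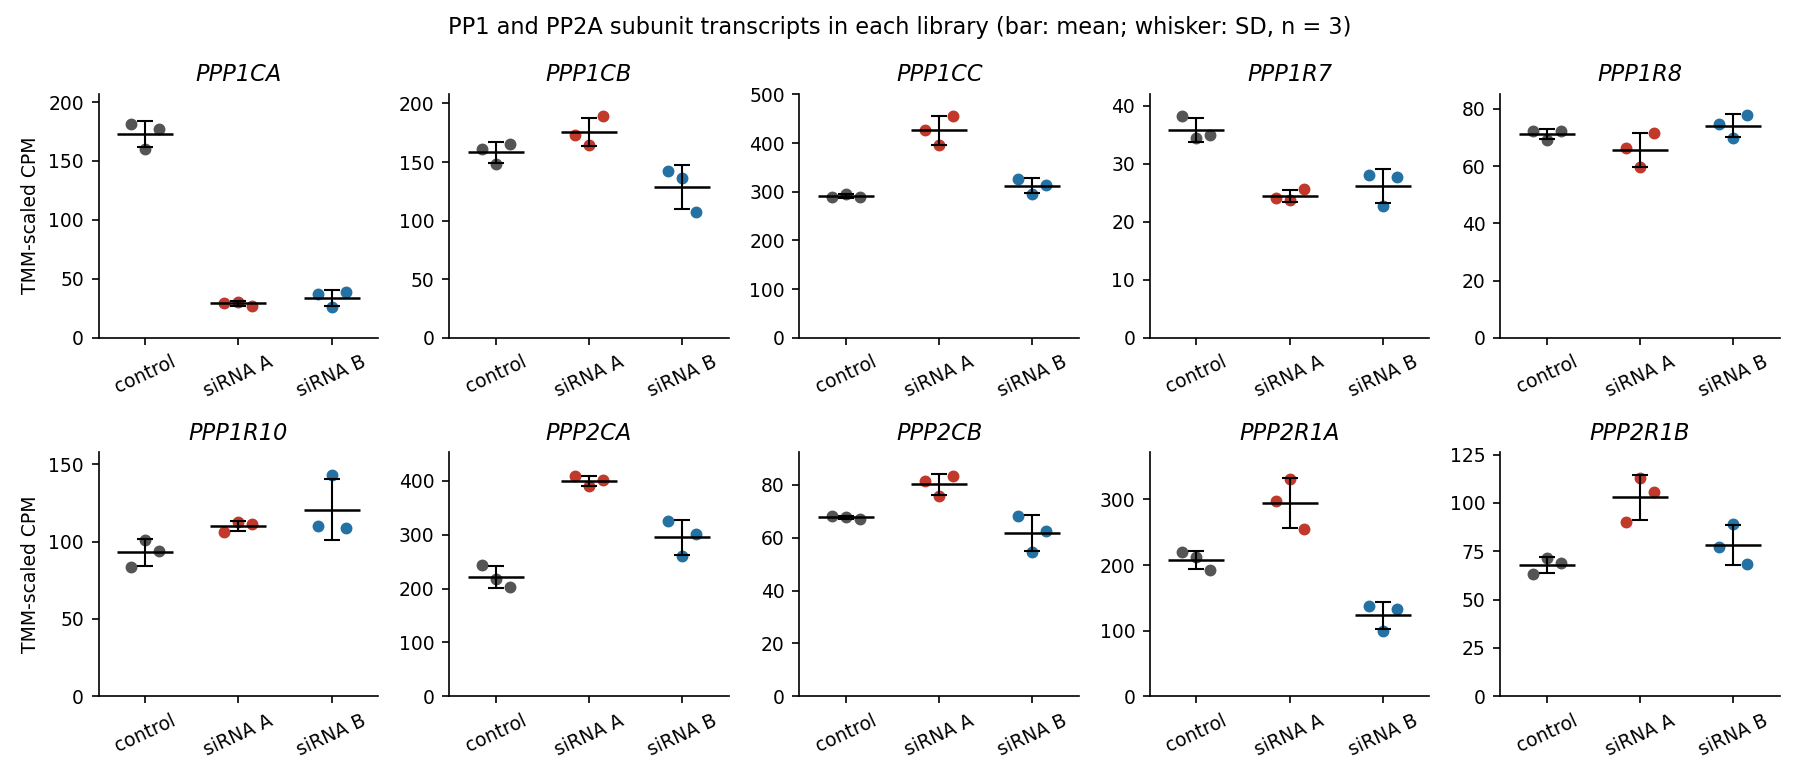
TMM-scaled CPM (y axis, from 0) of the 10 phosphatase genes in each library, grouped by control, siRNA A and siRNA B on the x axis, with points for libraries, a bar for the mean and whiskers for the SD of 3 libraries. The mean of PPP1CA is 173 in control libraries, 29.1 in siRNA A and 33.9 in siRNA B libraries, PPP1CC and PPP2CA are highest with siRNA A, and PPP2R1A is above control with siRNA A and below it with siRNA B.

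PPP1CC rose with siRNA A, and neither PPP1CB nor PPP1CC passed as higher with siRNA B. PPP1CC, the gamma form, stood at 289, 295 and 289 TMM-scaled CPM in control, at 427, 396 and 456 with siRNA A and at 326, 296 and 314 with siRNA B. All siRNA A libraries were above all others, whereas the lowest siRNA B library lay only just above the highest control library. The log2 fold change was 0.55 (SE 0.09, 95% interval 0.34 to 0.75) for siRNA A, 1.46-fold higher (limma adjusted p = 5.51e-04). For siRNA B it was 0.10 (SE 0.09, 95% interval −0.11 to 0.30) and did not pass (limma adjusted p = 0.446). With library totals in place of TMM factors the siRNA A difference of PPP1CC was 0.18 and no longer passed (limma adjusted p = 0.203).

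PPP1CB, the beta form, passed the test with neither siRNA. It stood at 161, 149 and 166 TMM-scaled CPM in control, at 173, 165 and 189 with siRNA A and at 142, 137 and 107 with siRNA B. The siRNA A libraries overlapped control, and all siRNA B libraries lay below it. The log2 fold change was 0.15 (SE 0.12, 95% interval −0.11 to 0.40) for siRNA A (limma adjusted p = 0.317) and −0.31 (SE 0.12, 95% interval −0.57 to −0.05) for siRNA B (limma adjusted p = 0.0627). The siRNA A value turned to −0.22 on library totals and to −0.023 after a correction for GC content. The siRNA B value passed on library totals (−0.52, limma adjusted p = 0.00730) and after the GC correction (−0.43, limma adjusted p = 0.00818), so that no setting gave a rise of PPP1CB with siRNA B.

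The siRNAs differed from each other in both remaining catalytic genes. On the log2 scale siRNA A exceeded siRNA B by 0.46 in PPP1CB (SE 0.12, limma adjusted p = 0.0106) and by 0.45 in PPP1CC (SE 0.09, limma adjusted p = 0.00334). On library totals neither difference passed.

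Levels of different genes were then compared per kilobase of merged exons, and the 3 PP1 catalytic genes were summed in each library. The sum was 108, 102 and 108 TMM-scaled CPM per kilobase in control, 92.6, 87.2 and 98.2 with siRNA A and 75.6, 67.8 and 69.5 with siRNA B. The groups did not overlap, and the means were 106.06 ± 3.30 in the control group, 92.7 ± 5.51 in siRNA A and 70.95 ± 4.08 in siRNA B (SD, n = 3). The siRNA A sum was thus 87.4% of the control one and the siRNA B sum 66.9%, with no test since it contains PPP1CA. With siRNA A the level of PPP1CA was lower by 35.3 TMM-scaled CPM per kilobase and PPP1CB and PPP1CC together were higher by 21.9, which equals 62.1% of the PPP1CA difference. Of these 21.9, PPP1CC gave 19.6 and PPP1CB 2.33. With siRNA B the level of PPP1CA was lower by 34.1 and PPP1CB and PPP1CC together differed by −0.99, so that on this scale none of the PPP1CA difference was made up.

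How far PPP1CB and PPP1CC together made up the PPP1CA difference with siRNA A depended strongly on the length used and on the scaling. The 62.1% became 55.9% by canonical transcript length, 108% by coding length and 7.47% on library totals. With siRNA B it was 2.22% by canonical transcript length, and their joint difference was negative by coding length and on library totals. The part made up was not computed under the GC correction. With siRNA A that correction gave log2 fold changes of 0.40 for PPP1CC, −0.023 for PPP1CB and −2.31 for PPP1CA. With the length of the canonical transcript in place of merged exons siRNA A reached 83.3% of the control sum and siRNA B 64.3%. With the coding length it was 101.9% and 76.6%, because PPP1CA has the shortest exons relative to its coding sequence. On library totals it was 67.8% and 57.9%. In each of these settings the sum was lower relative to control with siRNA B than with siRNA A, and for siRNA B it was below control in every one.

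**Figure D2:**
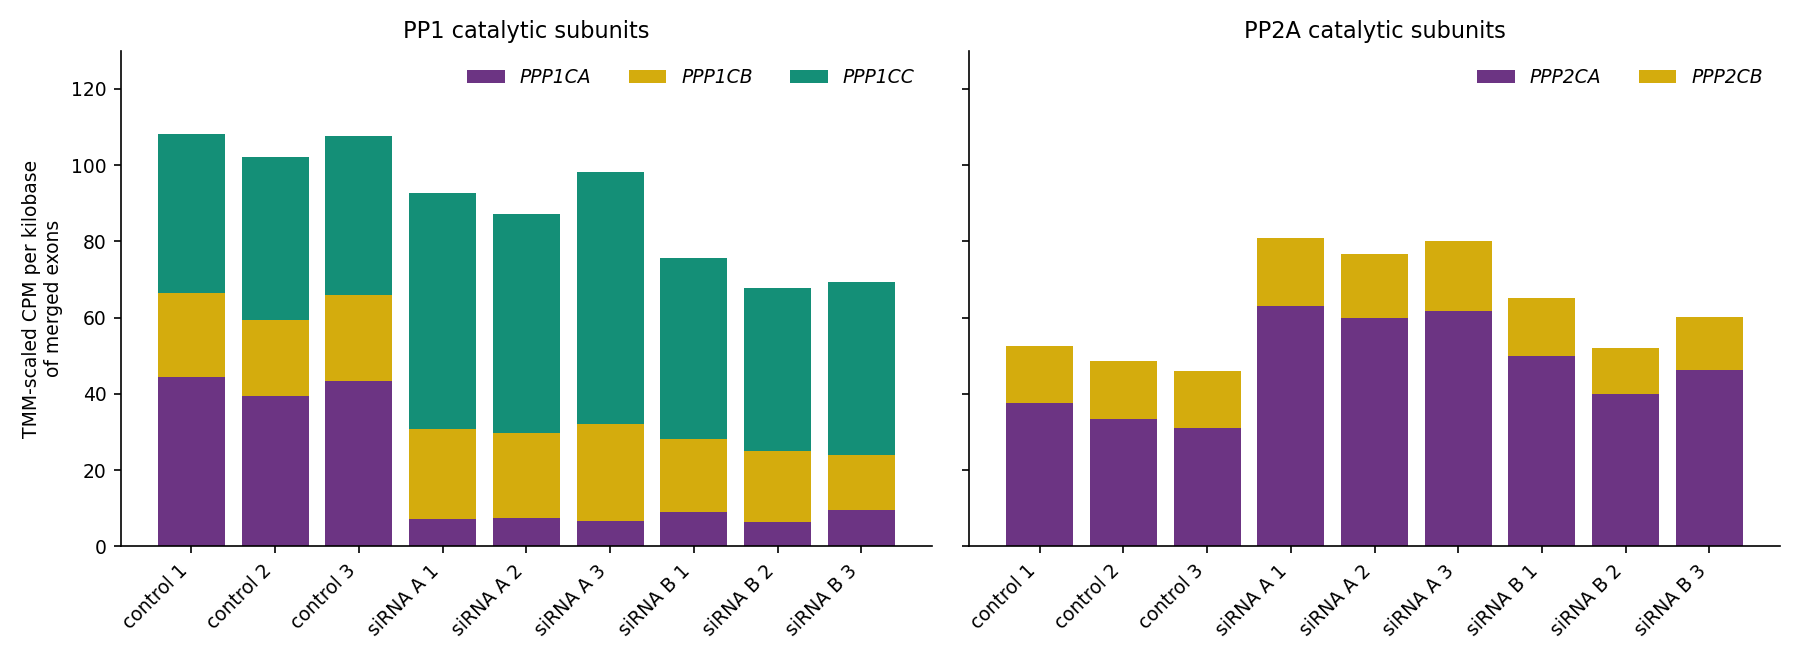
TMM-scaled CPM per kilobase of merged exons (y axis, from 0) in each of the 9 libraries (x axis), stacked over the catalytic genes of PP1 on the left and of PP2A on the right. The PP1 stack falls from 102 to 108 in control to 87.2 to 98.2 with siRNA A and 67.8 to 75.6 with siRNA B, while the PP2A stack is 46.1 to 52.7 in control, 76.8 to 81.0 with siRNA A and 52.1 to 65.1 with siRNA B, which overlaps control.

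The shares of the PP1 catalytic transcripts follow from the lower PPP1CA and are given as a description. PPP1CA made up 40.0% ± 1.36 of the summed level per kilobase in the control libraries, 7.74% ± 0.931 for siRNA A and 11.7% ± 2.09 for siRNA B (SD, n = 3). PPP1CC made up 39.8% in the control group, 66.6% for siRNA A and 63.8% for siRNA B, and PPP1CB 20.2%, 25.6% and 24.5%. With siRNA B these shares were larger although neither gene passed as higher. Their levels differed from control by 3.04 (PPP1CC) and −4.04 (PPP1CB) TMM-scaled CPM per kilobase. In control PPP1CA and PPP1CC stood level at 42.5 and 42.2 TMM-scaled CPM per kilobase, with PPP1CB at 21.4. With siRNA A and siRNA B PPP1CC led, PPP1CB came second and PPP1CA last. The order in control changed with the length chosen, since PPP1CA made up 45.4% by canonical transcript length and 27.4% by coding length.

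Among the PP1 partners, PPP1R7 fell with both siRNAs. PPP1R7 encodes SDS22, a leucine-rich repeat protein that binds the PP1 catalytic subunit early in holoenzyme assembly. It stood at 38.2, 34.5 and 34.9 TMM-scaled CPM in control, at 24.0, 23.7 and 25.6 with siRNA A and at 28.1, 22.8 and 27.7 with siRNA B. All 6 siRNA libraries were below all control libraries. On the log2 scale PPP1R7 fell by 0.53 with siRNA A (limma adjusted p = 0.00183) and fell by 0.44 with siRNA B (limma adjusted p = 0.00916), each with an SE of 0.11, and both calls held in every setting tried. The siRNAs did not differ detectably from each other in PPP1R7 (−0.09, limma adjusted p = 0.550).

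The nuclear partners of PP1 differed less. PPP1R8 encodes NIPP1, which holds PP1 at chromatin and splicing factors. PPP1R8 ranged from 69.1 to 72.3 TMM-scaled CPM in control, from 59.6 to 71.4 with siRNA A and from 69.9 to 77.8 with siRNA B, and the groups overlapped. Its log2 fold change was −0.12 (95% interval −0.33 to 0.10) for siRNA A and 0.06 (95% interval −0.16 to 0.27) for siRNA B, and neither passed (limma adjusted p = 0.340 and 0.687). On library totals PPP1R8 passed for siRNA A at −0.48 (limma adjusted p = 0.00378) and the siRNA B value turned to −0.15.

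PPP1R10 encodes PNUTS, which targets PP1 to RNA polymerase II and acts in transcription termination. It stood at 83.6, 101 and 94.1 TMM-scaled CPM in control, at 106, 113 and 111 with siRNA A and at 110.0, 143 and 109 with siRNA B. All siRNA libraries lay above control, and siRNA B replicate 2 lay above all others. With siRNA B PPP1R10 rose by 0.36 (SE 0.12, limma adjusted p = 0.0360), but without control replicate 1, control replicate 3, siRNA A replicate 3 or siRNA B replicate 2 the adjusted p was 0.132, 0.0795, 0.0504 and 0.111, and on library totals the value was 0.15 (limma adjusted p = 0.359). With siRNA A the value was 0.24 (SE 0.12) and did not pass (limma adjusted p = 0.110). That fit was unpaired, although control and siRNA A libraries were taken as pairs by the correlations given below, and siRNA B libraries were not. With the replicate as a block over all 9 libraries, siRNA B included, the siRNA A value passed (limma adjusted p = 0.0496). Without siRNA B replicate 2, which enters the shared spread, it passed as well (limma adjusted p = 0.0448), and on library totals it turned to −0.12.

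PPP2CA rose with both siRNAs. PPP2CA encodes the alpha form of the PP2A catalytic subunit and is the more abundant of the pair in these cells. It stood at 244, 218 and 203 TMM-scaled CPM in control, at 409, 390.1 and 401 with siRNA A and at 325, 259.6 and 301 with siRNA B. The 3 groups did not overlap, with siRNA A highest and control lowest. The log2 fold change was 0.85 (SE 0.11, 95% interval 0.61 to 1.09) for siRNA A, 1.81-fold higher (limma adjusted p = 8.64e-05), and it passed on library totals too at 0.49. For siRNA B it was 0.41 (SE 0.11, 95% interval 0.17 to 0.65), 1.33-fold higher (limma adjusted p = 0.0135). The siRNA B call was lost on library totals (0.20, limma adjusted p = 0.256), after the GC correction (0.31, limma adjusted p = 0.0651), and without control replicate 3 (limma adjusted p = 0.0623) or siRNA B replicate 1 (limma adjusted p = 0.0710).

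PPP2CB, the beta form, did not pass against control with either siRNA in the unpaired limma fit with TMM factors. Its siRNA A value lay near the threshold and passed in some settings. It stood at 68.4, 67.9 and 67.2 TMM-scaled CPM in control, at 81.4, 75.7 and 83.4 with siRNA A and at 68.2, 54.6 and 62.7 with siRNA B. The siRNA A libraries were all above control and the siRNA B libraries overlapped it. The log2 fold change was 0.24 (SE 0.10, 95% interval 0.02 to 0.46) for siRNA A (limma adjusted p = 0.0686). The adjusted p was 0.0478 with the replicate block in limma, 0.0400 in limma with DESeq2 size factors, 0.0226 in DESeq2 on the recovered reads and 0.0367 in limma without siRNA B replicate 2, while on library totals the value turned to −0.13. For siRNA B it was −0.14 (SE 0.10, 95% interval −0.36 to 0.08, limma adjusted p = 0.324), and on library totals −0.35 (limma adjusted p = 0.0466). Per kilobase of merged exons, the summed PP2A catalytic level was 49.1 ± 3.34 in control, 79.3 ± 2.21 with siRNA A (162% of control) and 59.1 ± 6.57 with siRNA B (120.4% of control). PPP2CA made up 69.3% of that sum in the control group, 77.6% for siRNA A and 76.8% for siRNA B. By canonical transcript length these shares were 58.0%, 67.9% and 66.9%, and by coding length 76.5%, 83.3% and 82.7%. The summed PP2A catalytic level was not computed with other lengths or on library totals.

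PPP2R1A, the alpha scaffold and the major one in most tissues, moved in opposite directions with the siRNAs. It stood at 219.6, 212 and 193 TMM-scaled CPM in control, at 297, 332 and 255 with siRNA A and at 137, 99.9 and 133 with siRNA B. The siRNA A libraries were all above and the siRNA B libraries all below control. PPP2R1A rose with siRNA A by 0.49 (SE 0.14, 95% interval 0.19 to 0.79, limma adjusted p = 0.0105), a call lost on library totals (0.12, limma adjusted p = 0.493). It fell by 0.76 with siRNA B (log2, SE 0.14, limma adjusted p = 0.00143), a level 1.70-fold lower, and this call held in every setting tried. Between the siRNAs PPP2R1A differed by 1.26 (SE 0.14, 95% interval 0.96 to 1.55, limma adjusted p = 6.76e-05), 2.39-fold higher with siRNA A.

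PPP2R1B, the beta scaffold, rose with siRNA A. It stood at 63.5, 71.6 and 68.8 TMM-scaled CPM in control, at 90.1, 113 and 106 with siRNA A and at 77.1, 89.1 and 68.3 with siRNA B. The siRNA A libraries were above all others, and the siRNA B libraries overlapped control. The log2 fold change was 0.59 (SE 0.12, 95% interval 0.32 to 0.85, limma adjusted p = 0.00186) for siRNA A, a call lost on library totals (0.22, limma adjusted p = 0.147). For siRNA B it was 0.19 (SE 0.12, 95% interval −0.07 to 0.46, limma adjusted p = 0.245), with −0.018 on library totals. The summed scaffold level per kilobase was 30.3 ± 1.19 in the control group, 43.9 ± 4.47 for siRNA A and 23.6 ± 1.03 for siRNA B. PPP2R1A made up 66.4% of it in the control group, 64.8% for siRNA A and 50.4% for siRNA B. By canonical transcript length these shares were 76.0%, 74.7% and 61.8%, and by coding length 75.7%, 74.4% and 61.4%. The summed scaffold level was not computed with other lengths or on library totals.

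**Figure D3:**
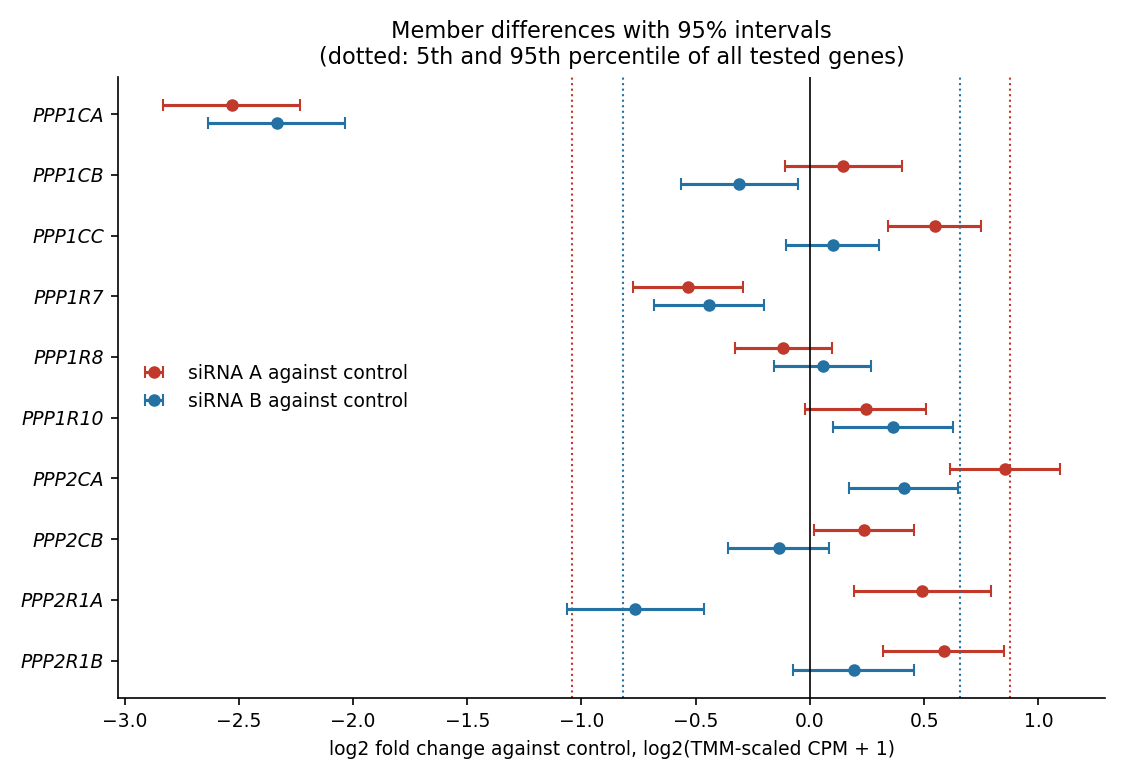
Log2 fold change against control (x axis, log2(TMM-scaled CPM + 1) scale) of the 10 genes (y axis), with siRNA A in red and siRNA B in blue, points for the estimate, whiskers for the 95% interval and dotted lines for the 5th and 95th percentiles of all tested genes. PPP1CA, which chose the family, lies at −2.53 and −2.33, and PPP2R1A lies at 0.49 with siRNA A and at −0.76 with siRNA B.

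All 10 genes passed the filter on low values and were tested. Leaving out PPP1CA, 5 of 9 passed for siRNA A (PPP1CC, PPP2CA, PPP2R1A and PPP2R1B higher, PPP1R7 lower), or 55.6%, where 51.4% of all tested genes did, 23.9% being higher and 27.6% lower. For siRNA B 4 of 9 passed (PPP1R10 and PPP2CA higher, PPP1R7 and PPP2R1A lower), or 44.4%, where 34.0% of all genes did, 15.6% being higher and 18.3% lower. These shares lay close to the background. They come from the unpaired fit. With the replicate block, 7 of the 9 passed for siRNA A, with PPP1R10 and PPP2CB added, where 8093 of the 13893 tested genes did. The median log2 fold change of the 9 was 0.24 (siRNA A) and 0.06 (siRNA B), beside −0.02 and 0.0043 over all tested genes. In TMM-scaled CPM groups did not overlap for 7 of the 9 with siRNA A, where 59.5% of all genes were so, and for 6 of the 9 with siRNA B, where 47.6% were. In the deposited CPM, PPP1CC, PPP1R10, PPP2CB, PPP2R1A and PPP2R1B with siRNA A overlapped control, while PPP1CB and PPP1R8 lay below it. With siRNA B, PPP1CC, PPP1R10 and PPP2CA newly overlapped control in the deposited CPM, while PPP1R8 and PPP2CB lay below it. Between the siRNAs 6 of 10 passed, where 37.1% of all genes did, and all 6 were higher with siRNA A, where 17.6% of all genes were called higher. These were PPP1CB, PPP1CC and all 4 PP2A genes, of which PPP2CA differed by 0.44 (SE 0.11, limma adjusted p = 0.00836), PPP2CB by 0.37 (SE 0.10, limma adjusted p = 0.0131) and PPP2R1B by 0.39 (SE 0.12, limma adjusted p = 0.0241). The median difference of the 10 was 0.38 beside −0.01 over all genes. The 10 include PPP1CA, which did not pass and whose difference is not independent of how the family was chosen. The PPP2R1B call was lost without siRNA A replicate 2 or 3 or siRNA B replicate 1 or 3 (limma adjusted p from 0.0663 to 0.0981), and on library totals 2 of the 10 passed, PPP2R1A higher and PPP1R8 lower with siRNA A (−0.33, limma adjusted p = 0.0449).

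Scaling and base composition moved with these results. TMM factors averaged 1.14 in the control group, 0.886 in the siRNA A group and 0.988 in the siRNA B group, so that library totals alone shifted each log2 ratio against control by about −0.37 (siRNA A) or −0.21 (siRNA B). The median over all tested genes was then −0.34 and −0.18 instead of close to 0, and of the genes called 16.1% and 18.8% were higher, in place of 46.4% and 46.0%. On either scale PPP1CC and PPP2CA stood above and PPP1R7 and PPP1CA below the median of all genes. Fold changes also followed the GC content of exons, with a correlation across 13502 genes, which are not independent, of −0.25 for siRNA A and −0.23 for siRNA B. PPP1CA was the gene of the 10 with the highest GC content, 61.9%, and the 1184 genes within 2 percentage points of it had a median of −0.24 for siRNA A and −0.15 for siRNA B. PPP1CB, PPP1CC and PPP2CA had 39.2%, 41.1% and 40.5% GC, and the 2437 genes nearest to PPP1CC had medians of 0.12 and 0.083. After the GC correction PPP1CA was at −2.31 and −2.18, PPP1R7 kept its calls with both siRNAs and PPP1CC and PPP2CA kept theirs with siRNA A.

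**Figure D4:**
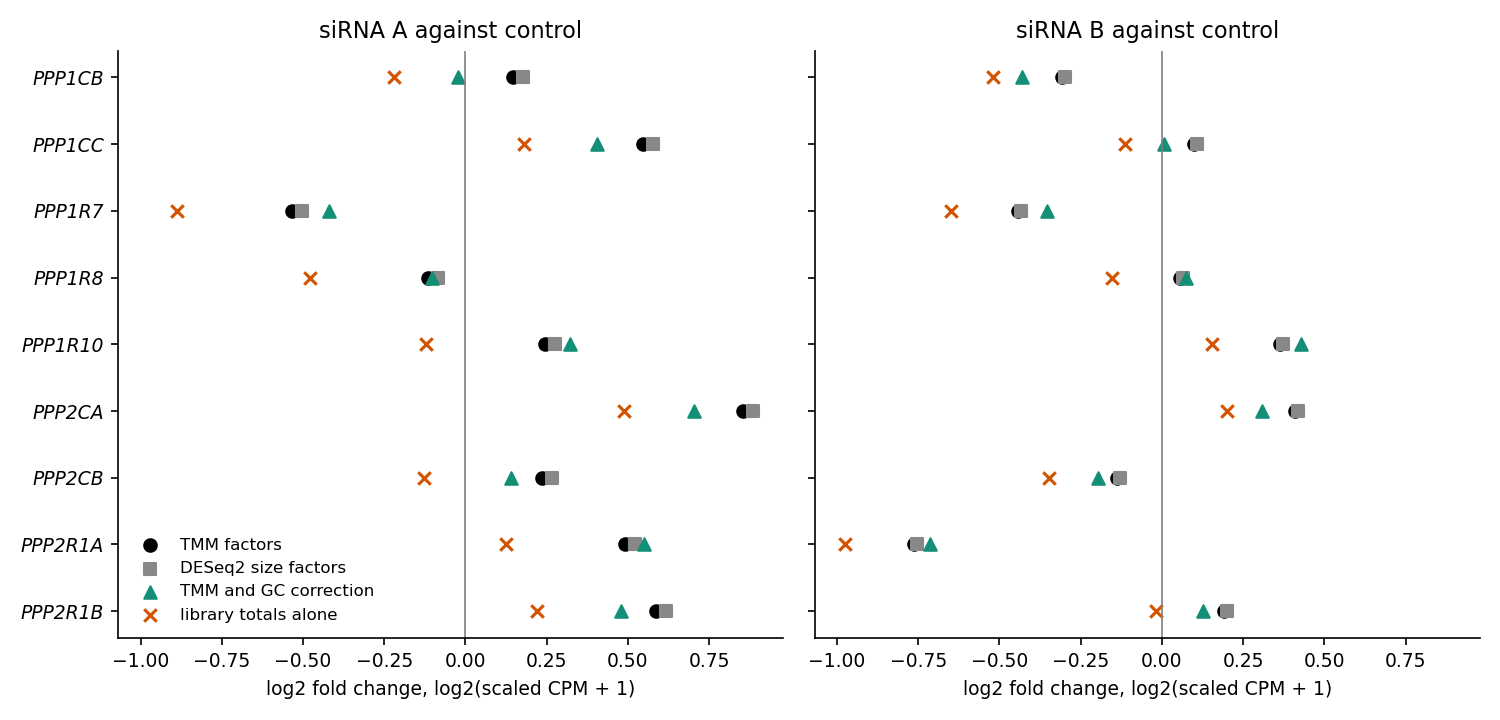
Log2 fold change against control (x axis) of the 9 genes other than PPP1CA (y axis) for siRNA A on the left and siRNA B on the right, under 4 ways of scaling: TMM factors (circles), DESeq2 size factors (squares), TMM with GC correction (triangles) and library totals alone (crosses). Library totals move every gene to the left, PPP1CC with siRNA A from 0.55 to 0.18, while PPP1R7 lies below 0 and PPP2CA above 0 throughout.

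The wider phosphatase network was read from 5 lists of 74 genes, of which 66 were in the table and 64 were tested. With siRNA A 19 of the 64 rose and 17 fell (56.2% called, beside 51.4% of all genes), and the median was 0.10. With siRNA B 18 rose and 9 fell (42.2% called, beside 34.0%), with a median of 0.095. The network as a whole was thus called about as often as other genes, with members going both ways.

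Of the PP1 inhibitors 4 of 8 listed were tested, 1 fell with siRNA A (25.0% called, beside 51.4% of all genes), 2 fell with siRNA B (50.0%, beside 34.0%) and none rose with either in limma. PPP1R11, known as inhibitor 3, averaged 41.5 TMM-scaled CPM in the control group, 20.2 for siRNA A and 25.8 for siRNA B. PPP1R11 fell by 1.002 (limma adjusted p = 1.27e-05) with the former and fell by 0.67 (limma adjusted p = 3.53e-04) with the latter on the log2 scale. PPP1R14B, an inhibitor of myosin phosphatase, fell by 0.998 with siRNA B (limma adjusted p = 7.51e-04), while its siRNA A value was −0.38 (limma adjusted p = 0.0652, with the replicate block 0.0292, and on library totals −0.74 with 0.00187).

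Of the PP1 targeting subunits 22 of 25 were tested. With siRNA A 5 rose and 8 fell (59.1% called, beside 51.4% of all genes, median −0.25). With siRNA B 2 rose and 1 fell (13.6% called, below the 34.0% of all genes, median 0.083). PPP1R15A, or GADD34, which brings PP1 to the translation factor eIF2 alpha in the stress response, rose with both siRNAs, its control level of 52.2 TMM-scaled CPM becoming 130.2 for siRNA A (log2 fold change 1.32, limma adjusted p = 3.08e-04) and 108 for siRNA B (1.07, limma adjusted p = 0.00218). PPP1R9B, spinophilin, an actin-binding targeting subunit, had 169.5 in control, 119 with siRNA A (−0.51, limma adjusted p = 0.00621, lost after the GC correction at −0.27) and 78.0 with siRNA B (−1.11, limma adjusted p = 8.93e-05). PPP1R12C, a myosin phosphatase targeting subunit, fell by 1.26 with siRNA A (limma adjusted p = 5.12e-06) and had −0.22 with siRNA B (limma adjusted p = 0.117, on library totals −0.43 and 0.00801). The difference between the siRNAs in PPP1R12C was −1.04 (limma adjusted p = 4.00e-05).

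Of the PP2A B-type subunits 13 of 15 were tested, and with each siRNA 5 rose and 2 fell (53.8% called, beside 51.4% of all genes with siRNA A and 34.0% with siRNA B, medians 0.18 and 0.13). PPP2R2C, a B55 subunit, fell with both siRNAs, its control level of 35.5 TMM-scaled CPM becoming 12.9 with siRNA A (−1.39, limma adjusted p = 6.37e-06) and 22.1 with siRNA B (−0.66, limma adjusted p = 0.00144). PPP2R5A, a B56 subunit, rose from 42.1 to 78.0 with siRNA A (0.87, limma adjusted p = 1.59e-05) and 68.5 with siRNA B (0.69, limma adjusted p = 1.45e-04). STRN3, a striatin that joins PP2A to kinases in the STRIPAK complex, rose from 48.4 to 84.8 with siRNA A (0.79, limma adjusted p = 2.06e-04) and 82.9 with siRNA B (0.75, limma adjusted p = 5.77e-04).

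All 12 PP2A assembly factors and inhibitors were tested. With siRNA A 4 rose and 3 fell (58.3% called, beside 51.4% of all genes, median 0.22), and with siRNA B 5 rose and none fell in limma (41.7% called, beside 34.0%, median 0.23). LCMT1 methylates the end of the PP2A catalytic subunit and favours assembly of the holoenzyme. It fell with siRNA A from 23.0 to 9.69 TMM-scaled CPM (−1.17, limma adjusted p = 3.36e-05) and stood at 19.7 with siRNA B (−0.22, limma adjusted p = 0.223, on library totals −0.42 and 0.0376), and the siRNAs differed by −0.96 (limma adjusted p = 2.45e-04). SET, a PP2A inhibitor, rose from 433 to 694 with siRNA A (0.69, limma adjusted p = 2.30e-04) and 663 with siRNA B (0.62, limma adjusted p = 8.40e-04). CIP2A, another PP2A inhibitor, rose by 0.58 and 0.55 (limma adjusted p = 0.00450 and 0.00994), with both calls lost on library totals and the siRNA B call also after the GC correction (0.39, limma adjusted p = 0.0556).

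Of the other phosphatases of the family, with the PP4 and PP6 subunits, 13 of 14 were tested. With siRNA A 5 rose and 3 fell (61.5% called, beside 51.4% of all genes, median 0.20), and with siRNA B 6 rose and 4 fell (76.9% called, beside 34.0%, median 0.26). The PP6 regulatory subunit PPP6R2 fell from 52.0 TMM-scaled CPM to 15.1 with siRNA A (−1.73, limma adjusted p = 5.52e-06) and to 24.3 with siRNA B (−1.08, limma adjusted p = 2.04e-04). PPP6R1, its relative, fell by 1.25 with siRNA A (limma adjusted p = 6.31e-06) and fell by 0.38 with siRNA B (limma adjusted p = 0.0153), the latter lost after the GC correction (−0.23), without control replicate 3 (limma adjusted p = 0.0679) and without siRNA B replicate 3 (limma adjusted p = 0.0549). PPP3R1, the calcium-binding subunit of calcineurin, rose by 0.46 with siRNA A (limma adjusted p = 0.00446, on library totals 0.093 and not called) and by 0.64 for siRNA B (limma adjusted p = 0.00109).

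**Figure D5:**
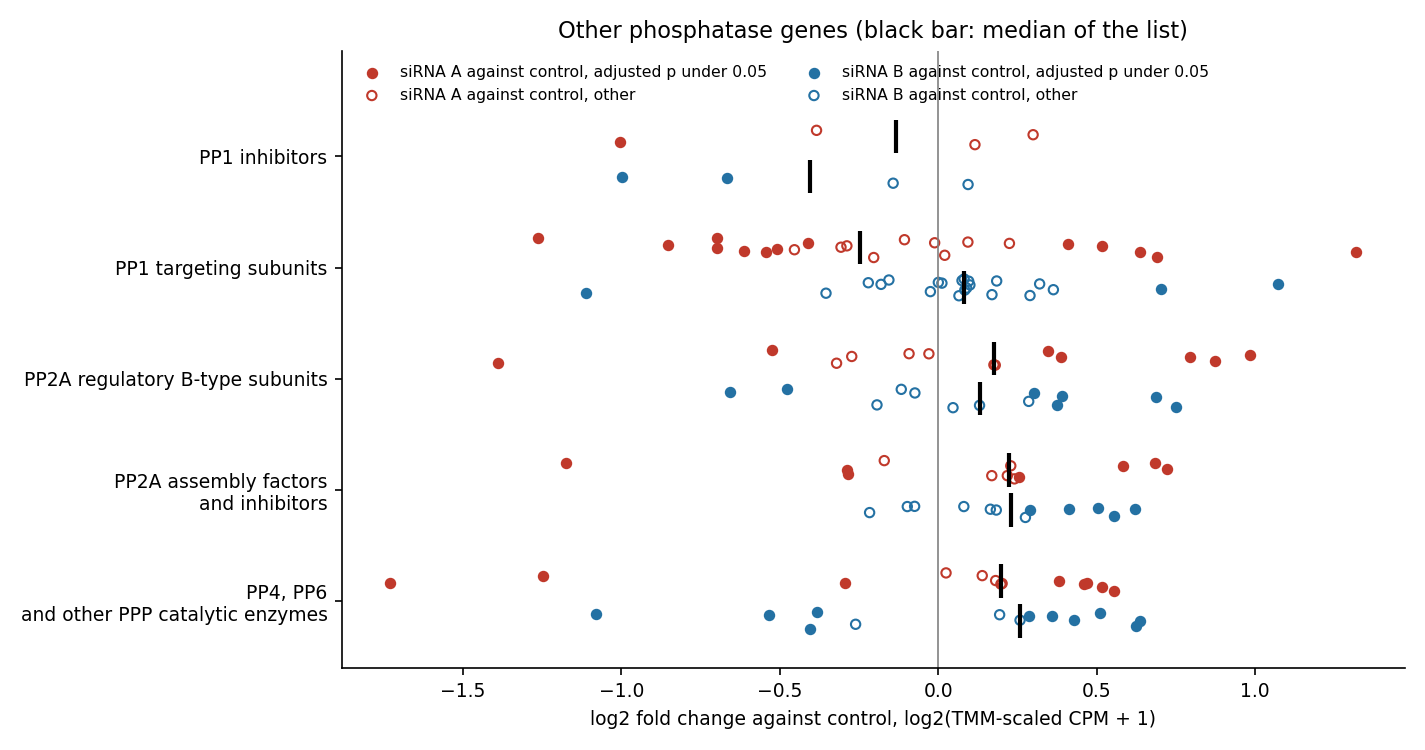
Log2 fold change against control (x axis, log2(TMM-scaled CPM + 1) scale) of the 64 tested genes of 5 phosphatase lists (y axis), with siRNA A in red and siRNA B in blue, filled points past an adjusted p of 0.05 and a black bar for the median of each list. Every list holds genes on both sides of 0, and the medians lie between −0.40 and 0.26.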

How the data were processed

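The authors deposited 1 table of CPM (reads per gene relative to the library total) for 9 RNA-seq libraries, with no scaling beyond the library total. Per the labels, RNA purified with oligo-dT was read as single ends of 50 bases. The submitters' processing notes name TopHat2 (version 2) and HTSeq (version 2) with GRCh37, without their roles, and strand use is not given in the sources used here. Every deposited CPM value was a whole number of reads (within 0.01 read) over its library total, so reads were recovered for 100% of values. Of 15354 rows 14871 matched GENCODE identifiers on GRCh37, from which lengths, overlaps and sequences were read. No column lacked a sample.

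The 10 genes, the gene lists and the markers were chosen with earlier results of these data known. The text names all 10 genes, the 3 genes of each list with the largest mean absolute change among those called, SNHG5, and the 5 genes most correlated with PPP1CA. Fewer than 3 genes of the PP1 inhibitors were called, so both are named. CPM were scaled by TMM factors (edgeR 4.0.16), and log2(CPM + 1) was tested with limma 3.58.1 in R 4.3.3 (variance trend, all 9 libraries in 1 model, Benjamini-Hochberg adjustment, threshold 0.05) for the 13893 genes that reached 1 CPM in 3 or more libraries. Such fold changes understate those of low genes. Intervals are 95% intervals of the fit, not adjusted over genes. Scripts were tested on simulated data. Alternatives were library totals, DESeq2 1.42.0 size factors, a pseudocount of 0.1, no low-value filter, a replicate block, edgeR's quasi-likelihood test and DESeq2 on the recovered reads, a GC correction, each library left out, and, chosen after seeing the data, canonical and coding lengths and the offset on library totals.

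At 1 CPM a gene had 15.6 to 23.3 reads, a counting error of 20.7% to 25.3%, and 3 reads equalled 0.129 to 0.193 CPM. Without molecular identifiers, such limits cover counting error only. Libraries of a group correlated with r from 0.983 to 0.994 and differed beyond sampling noise (chi-square at least 13.0 per degree of freedom). The labels do not say that they came from separate cultures, though the study's methods call the replicates biological, and p-values measure the spread between these libraries. As a check of pairing, deviations from the group mean were correlated between libraries of the same number. The correlations were 0.65, 0.41 and 0.13 between control and siRNA A, which were taken as pairs. They were 0.17, 0.44 and −0.39 between control and siRNA B, and 0.20, 0.44 and 0.019 between the siRNAs. These were not taken as pairs, but the replicate block was fitted to all 9 libraries. The main limma fit held no replicate term, so its siRNA A tests against control did not use the pairing.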

Additional observations from a re-analysis of the deposited data

Results flagged for a closer look

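The effects of siRNA A and siRNA B differed, by the test of the difference itself (limma, Benjamini-Hochberg adjustment over all genes tested), in 6 of the 10 genes. The log2 difference of siRNA A over siRNA B was 0.46 for PPP1CB, 0.45 for PPP1CC, 0.44 for PPP2CA, 0.37 for PPP2CB, 1.26 for PPP2R1A and 0.39 for PPP2R1B. For each of the 6 the lowest siRNA A library was above the highest siRNA B library in TMM-scaled CPM. Of all tested genes 47.6% did not overlap between the siRNAs on that scale, in either direction. In the deposited CPM the siRNAs overlapped for all of the 6 but PPP2R1A, and the share of all genes was not computed there. PPP2R1A was the gene whose effects against control passed in opposite directions, and its difference passed on library totals too. With 37.1% of all tested genes called between the siRNAs, such differences were common in these libraries.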

How the results depend on the processing

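On library totals these values changed sign: PPP1CB with siRNA A (−0.22), PPP1CC with siRNA B (−0.11), PPP1R8 with siRNA B (−0.15), PPP1R10 with siRNA A (−0.12), PPP2CB with siRNA A (−0.13) and PPP2R1B with siRNA B (−0.018). None of these passed the test with TMM factors or with totals, in the unpaired limma fit of all 9 libraries. The GC correction turned PPP1CB with siRNA A to −0.023, and leaving out siRNA B replicate 2 turned the siRNA A to siRNA B difference of PPP1R10 to 0.0094, in a range from −0.19. On totals PPP1CC with siRNA A was 0.18, PPP1CB with siRNA B −0.52, the genes called were 3 for siRNA A against control and 2 between the siRNAs, and the summed PP1 level was 67.8% (siRNA A) and 57.9% (siRNA B) of the control one. By coding length that sum was 101.9% and 76.6%. The GC correction gave −0.43 for PPP1CB with siRNA B, and the replicate block gave −0.31 with a limma adjusted p of 0.0499. Totals shift every log2 ratio by construction. The cause of the other changes was not tested.

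With each library left out, PPP1CB ranged from 0.094 to 0.19 with siRNA A and from −0.39 to −0.18 with siRNA B, PPP1CC from 0.50 to 0.60 and from 0.058 to 0.14. The genes called ranged from 5 to 7 for siRNA A, from 2 to 4 for siRNA B (2 without control replicate 3) and from 5 to 7 between the siRNAs. Over all genes the calls ranged from 6018 to 7679, from 3471 to 4938 and from 4009 to 5124. The summed PP1 level ranged from 84.8% to 89.95% and from 64.7% to 68.4%. Most other calls that changed stand beside their results. Of the other alternatives, 474 values kept their direction and side of the threshold or their size, 14 passed newly, 17 no longer passed, 7 changed sign and 8 moved. The replicate block, for siRNA A against control, added calls of PPP1R10, PPP2CB and PPP1R14B and removed none among the genes named. The coding length of RefSeq proteins was not run.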
